A study of Rattus norvegicus with 16 samples.

Results

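The sinusoidal endothelial genes described here were Stab1, Stab2, Lyve1, Kdr, Flt1, Flt4, Pecam1, Tek, Eng and Fcgr2b, 10 markers of the liver's capillary endothelium taken by symbol from a table of 22587 gene symbols. A row was found for 9 of the 10, and Pecam1 was not analysed here. Liver RNA came from male rats aged 13 weeks, whose strain is labelled Wistar-Wyoto. The 4 groups were sham-operated rats in air (SHAM air), the same in ozone (SHAM ozone), and rats after total bilateral adrenalectomy, the removal of both adrenal glands, in air (ADREX air) or in ozone (ADREX ozone). Exposure lasted 4 hours, with ozone at 0.8 ppm, and 4 libraries were made per group from whole, flash-frozen liver. Every rat had an operation, the controls the sham one. For 4 libraries titled as ADREX in air, the treatment field of the labels reads ozone; they were placed by their titles, which fit the series' design of both exposures in both surgeries. The comparisons ask what ozone did in each surgery group, whether that differed, and what adrenalectomy did in each exposure.

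Liver sinusoids are lined by a fenestrated endothelium with no continuous basement membrane, which lets plasma reach the hepatocytes and clears waste molecules from blood. Stab1 and Stab2 encode scavenger receptors of these cells, Lyve1 a hyaluronan receptor, and Fcgr2b an inhibitory Fc receptor that binds immune complexes. Kdr, Flt1 and Flt4 encode the receptors for vascular endothelial growth factors (VEGFs), Tek the angiopoietin receptor TIE2, and Eng endoglin, a co-receptor for BMP and TGF-beta ligands. The adrenal glands make glucocorticoids and adrenaline, the stress hormones whose source adrenalectomy removes.

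Values below are normalized counts, read counts divided by 1 size factor per library, and the recovered totals were 8372891 to 14096246 reads per library. RPM are reads per 1000000 reads of a library. All 9 genes had reads in every library, from a minimum of 71 reads for Stab1 to much deeper coverage for Kdr and Fcgr2b, so all 9 defining markers were present in each library. In whole liver, fewer endothelial cells and less RNA per endothelial cell cannot be told apart. The labels do not say whether the libraries of a group came from separate rats, so p-values measure only the spread between these samples, which may be technical. The 25 markers of neurons and oligodendrocytes, cells foreign to liver, summed to 45.9 to 832 RPM (SHAM air), 76.6 to 2898 RPM (SHAM ozone), 274 to 1193 RPM (ADREX air) and 808 to 4662 RPM (ADREX ozone). The 3 libraries richest in them were SHAM ozone library 18 and ADREX ozone libraries 81 and 82, and counts of members below 0 are given without them where they differ. A fit with the neural marker level as a covariate was also run. Of the 8 brain endothelium markers in the table, Slco1a4 (377 to 1983 RPM), Mfsd2a (53.8 to 252 RPM), Slc2a1 (3.82 to 82.7 RPM) and Itm2a (1.20 to 25.4 RPM) were read throughout, the first and second of which hepatocytes express too. Cldn5, Slco1c1 and Lef1 reached 3.90, 6.86 and 3.47 RPM at most, and Slc38a5 had 0 reads in 10 libraries. For ozone in sham-operated rats limma called 0 of the 6 tested, against 1.58% of all genes, and their median log2 change was 1.505. Unadjusted p was under 0.05 for 4, all higher, against 2358 of the 12791 genes. For ozone in ADREX 0 were called, against 0.125% of all genes. There 2 were higher without overlap, against 6.99% of all genes. For ADREX against SHAM under ozone limma called Mfsd2a lower (log2 change -1.34), 1 of the 6, against 12.5% of all genes. The part of brain endothelium in the results was not tested.

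Promoter sequences were read from RefSeq for build GRCr8 of the rat genome, as the 250 bases before each gene's start, and 7 of the 9 genes matched, all but Tek and Fcgr2b. Sequences of 4 genes are printed 5′ to 3′ on the gene's strand: Stab2 and Lyve1, the pair with the highest Pearson r within groups, and Kdr and Flt1, the VEGF receptors with an unadjusted p under 0.05 for ozone in sham-operated rats. They lie at chr7:23320563-23320812 (minus strand), chr1:174410978-174411227 (minus), chr14:32571813-32572062 (plus) and chr12:12333180-12333429 (plus), each directly before the annotated start. Capitals mark the letters CCGGAA or AGGAAG, or their reverse complements, which are core letters bound by ETS factors, regulators of endothelial genes.
Stab2: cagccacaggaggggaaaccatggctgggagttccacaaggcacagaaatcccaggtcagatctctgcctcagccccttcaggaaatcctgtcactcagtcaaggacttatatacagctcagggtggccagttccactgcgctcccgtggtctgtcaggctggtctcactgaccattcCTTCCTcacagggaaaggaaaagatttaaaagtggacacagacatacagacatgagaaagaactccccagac
Lyve1: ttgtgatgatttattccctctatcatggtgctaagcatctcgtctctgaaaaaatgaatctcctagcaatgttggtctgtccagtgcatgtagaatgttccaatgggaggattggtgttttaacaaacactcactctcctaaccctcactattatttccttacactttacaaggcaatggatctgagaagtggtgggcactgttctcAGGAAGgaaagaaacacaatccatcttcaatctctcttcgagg
Kdr: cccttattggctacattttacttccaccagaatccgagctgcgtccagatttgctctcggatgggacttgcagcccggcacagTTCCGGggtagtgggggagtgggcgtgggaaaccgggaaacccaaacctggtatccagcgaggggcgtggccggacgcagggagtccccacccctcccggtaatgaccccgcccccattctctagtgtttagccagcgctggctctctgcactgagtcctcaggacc
Flt1: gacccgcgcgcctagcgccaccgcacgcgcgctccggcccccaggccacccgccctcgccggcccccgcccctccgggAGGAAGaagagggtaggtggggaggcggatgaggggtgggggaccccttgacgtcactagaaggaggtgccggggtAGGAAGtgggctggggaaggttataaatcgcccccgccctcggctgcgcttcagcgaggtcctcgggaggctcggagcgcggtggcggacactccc
These letters occurred in 6 of the 7 promoters, once in Stab2, Lyve1, Kdr and Flt4 and at 2 places in Flt1 and Eng, and in none of Stab1's window. Of all 33469 rat promoters of the same length, 38.35% hold them. The GATA letters AGATAA, on either strand, were in 0 of the 7 windows, against 10.3% of all promoters. The half-site AGAACA of the glucocorticoid receptor, searched on both strands, was in 1, at -50 bases in Lyve1, against 17.52%, and TATAAA was in 1, at -75 bases in Flt1, against 12.93%. These are letter matches and not measured sites. Each motif was searched independently, and overlapping matches of different motifs would each count.

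Ozone in sham-operated rats came with lower values of the stabilins, the VEGF receptors Kdr and Flt1, and Tek, by 28.6% to 39.4% in the fit, yet no single gene passed the test. Stab1 read 214, 257, 169 and 257 in SHAM air and 110.2, 113, 150.2 and 171 in SHAM ozone. Its means were 224 ± 42.1 and 136 ± 29.7 (SD, n = 4 each), a log2 change of -0.72 (SE 0.35). The highest ozone library lay just above the lowest air library, at 171 and 169, so the groups overlapped. Stab2 read 589, 742, 593 and 670.2 in SHAM air against 382, 241, 421 and 664 in SHAM ozone. Here 3 ozone libraries lay below all air libraries and library 20 lay among them, for a log2 change of -0.69 (SE 0.27).

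Kdr, the main signalling receptor for VEGF-A, read 2258, 2196, 2335 and 2063 in SHAM air and 1569, 1162, 1749 and 1941 in SHAM ozone. Every ozone library was below every air library, with means of 2213 ± 115 and 1605 ± 332 (SD, n = 4 each). The log2 change was -0.49, with a 95% confidence interval from -0.89 to -0.09. Tek also separated completely, at 458, 501, 469 and 696 in SHAM air against 300.5, 261, 405 and 351 in SHAM ozone, a log2 change of -0.69 (interval -1.19 to -0.18). Flt1, a high-affinity VEGF receptor that also acts as a trap for the ligand, read 356, 437, 271 and 504 against 223, 192, 247 and 291. One air library at 271 fell below the highest ozone library, and the log2 change was -0.69 (interval -1.21 to -0.18).

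The other 4 genes overlapped widely between SHAM air and SHAM ozone. Lyve1 read 467, 637, 536 and 519.7 in air and 447, 257, 471 and 686 in ozone, so both the lowest and the highest value were ozone libraries. Flt4, best known as the VEGF-C receptor of lymphatic vessels and also present on sinusoids, had means of 230.4 ± 50.4 and 236 ± 67.3 (SD, n = 4 each). Eng had a log2 change of -0.12 (interval -0.51 to 0.28) and Fcgr2b one of -0.35 (interval -0.91 to 0.21).

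In limma's moderated test with Benjamini-Hochberg adjustment over 12791 genes, 0 of the 9 passed an adjusted p of 0.05 for ozone in sham-operated rats, where 1.58% of all genes did. Adjusted p was lowest for Tek at 0.153, then 0.155 for Flt1, 0.192 for Kdr and 0.199 for Stab2. At an unadjusted p under 0.05 there were 4 of the 9, all lower (Stab2, Kdr, Flt1 and Tek), against 2358 of the 12791 genes, 1109 of them lower. On the recovered reads edgeR and DESeq2 also called 0. The fitted change was below 0 for 8 of the 9, with a median of -0.49, against 49.0% below 0 and a median of 0.01 over all genes tested. Groups that did not overlap, all lower under ozone, were found for 2 of the 9 (Kdr and Tek), against 5.93% of all genes. With the 3 neural-rich libraries left out, 7 of 9 were below 0 and the members' median was -0.34.

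**Figure D1:**
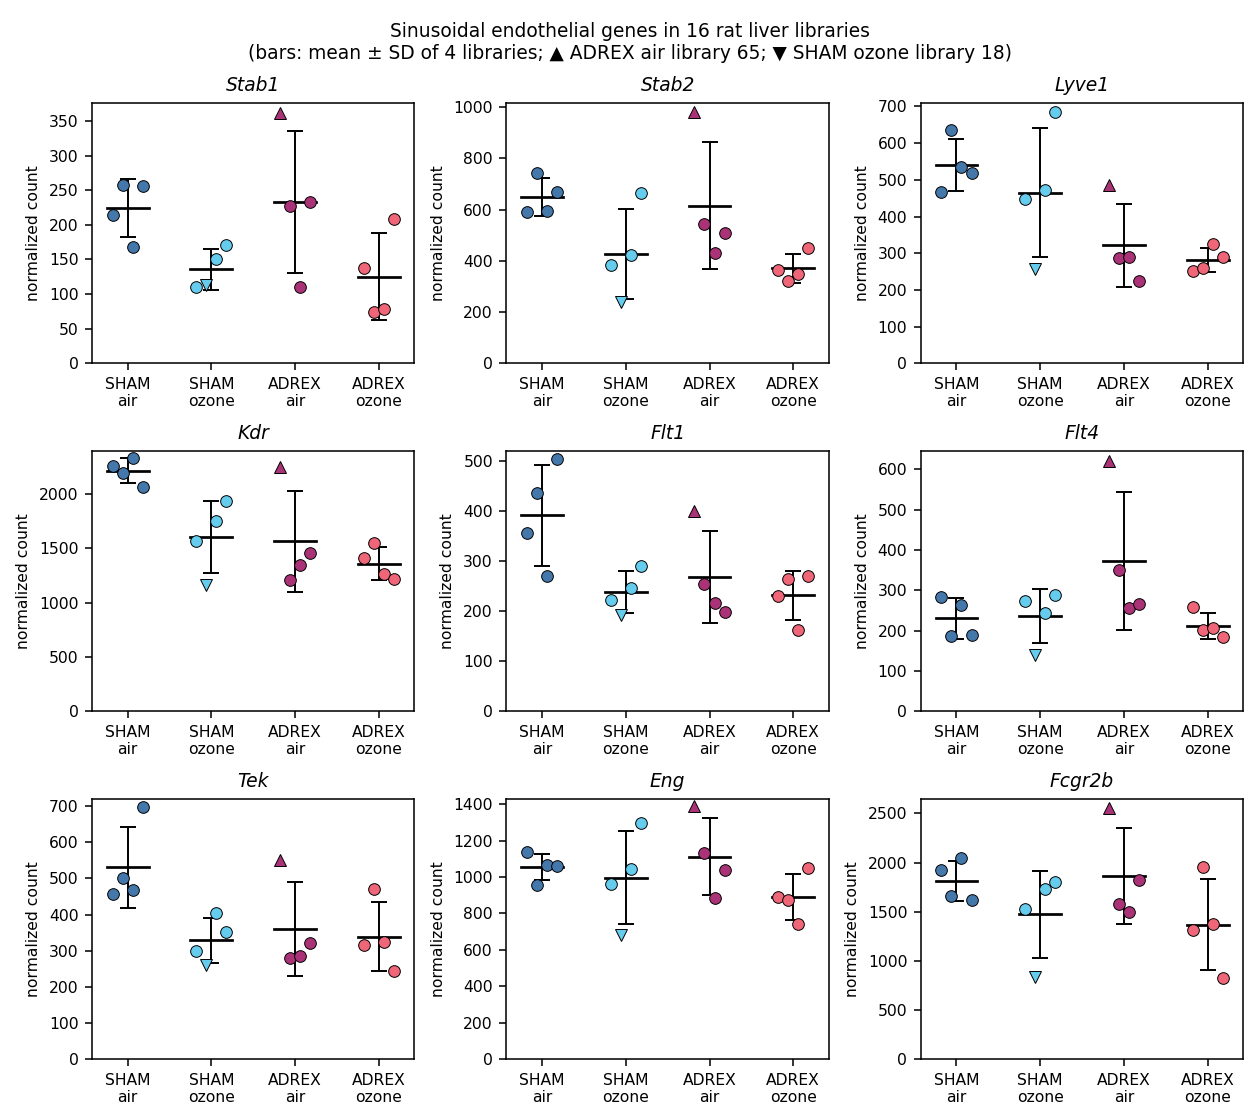
Normalized counts (vertical axes, linear, from 0) of the 9 genes in each of 16 libraries, by group (horizontal axes); points are libraries and black bars are the mean ± SD of 4. ADREX air library 65 (upward triangle) is the highest of its group in all 9 panels, and SHAM ozone library 18 (downward triangle) is the lowest of its group in 8; Kdr and Tek are the panels in which SHAM air and SHAM ozone do not overlap.

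A few libraries stood apart for most of the 9 genes. SHAM ozone library 18 was the lowest of its group for 8 of the 9 genes and the lowest of all 16 libraries for 4, and it held 2898 RPM of neural markers. In the same group, library 20 was the highest for 8 of the 9 and held 76.6 RPM. Without library 20 all 9 fitted ozone changes in sham-operated rats were below 0, and without library 18 it was 7 of 9. The mean level over the 9 genes on the log2 scale, each gene centred on its mean over all libraries, was 0.32 ± 0.06 for SHAM air, -0.12 ± 0.39 for SHAM ozone, 0.10 ± 0.44 for ADREX air and -0.30 ± 0.09 for ADREX ozone (SD, n = 4 each). The SD was thus smallest in SHAM air, and in ADREX ozone all 4 libraries were below 0.

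Ozone in adrenalectomized rats came with lower values of Stab1, Stab2 and Flt4, by 37.0% to 46.7% in the fit, and with little difference in Kdr, Flt1 and Tek. Stab1 read 361, 228, 110.2 and 234 in ADREX air and 137, 74.4, 79.0 and 209 in ADREX ozone, a log2 change of -0.91 (SE 0.35). One air library sat among the ozone libraries. Stab2 read 979, 543, 429 and 510.0 against 363, 321, 349 and 450.5, a log2 change of -0.67 (SE 0.27), and its ozone libraries lay close together at 371 ± 56.1 (SD, n = 4). Flt4 read 621, 349, 256 and 265 against 258, 201, 206 and 184. Its log2 change was -0.72 (interval -1.31 to -0.13), and the groups met at 256 and 258.

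Kdr, whose groups had separated in sham-operated rats, overlapped between the ADREX groups, at 2249, 1213, 1345 and 1458 in air and 1414, 1546, 1261 and 1220.5 in ozone. Tek read 552, 279.6, 286 and 322 in ADREX air and 317, 471, 324 and 245 in ADREX ozone, a log2 change of -0.07 (interval -0.57 to 0.44). Flt1 had a log2 change of -0.18 (interval -0.69 to 0.34), Lyve1 -0.14 (interval -0.69 to 0.41), Eng -0.31 (interval -0.71 to 0.08) and Fcgr2b -0.48 (interval -1.04 to 0.08).

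For ozone in adrenalectomized rats limma called 0 of the 9, against 0.125% of all genes. Unadjusted p was under 0.05 for 3, all lower, against 2282 of the 12791 genes, 871 of them lower. Adjusted p was 0.203 for Stab1, 0.208 for Flt4 and 0.227 for Stab2, and edgeR and DESeq2 called 0. All 9 fitted changes were below 0, with a median of -0.31, where 43.4% of all genes were below 0 and their median was 0.06. None of the 9 was lower without overlap, against 2.98% of all genes. ADREX air library 65 was the highest of its group for all 9 genes and the highest of all 16 libraries for 5, and without it 5 of 9 changes were below 0 and the lowest of them was -0.66. With sample weights in limma, Stab1 passed (log2 change -1.21, adjusted p = 0.0448), 1 of 9 where 2.58% of all genes did.

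The ozone effect was then compared between surgeries, as the change in ADREX minus the change in SHAM. Tek at 0.62 (interval -0.10 to 1.34), Flt1 at 0.52 (interval -0.21 to 1.25) and Kdr at 0.32 (interval -0.24 to 0.88) had the largest differences above 0, that is, a smaller fitted reduction in adrenalectomized rats, and Lyve1 stood at 0.15 (interval -0.63 to 0.92). Flt4, at -0.73 (interval -1.56 to 0.10), had the largest below 0, its change being 0.01 in SHAM and -0.72 in ADREX. Eng stood at -0.20 (interval -0.75 to 0.36) and Fcgr2b at -0.13 (interval -0.92 to 0.67). For the stabilins the difference was -0.19 (interval -1.22 to 0.85) in Stab1 and 0.02 (interval -0.79 to 0.83) in Stab2, with intervals that reach well to both sides of 0. Limma called 0 of the 9, against 0.109% of all genes, and edgeR and DESeq2 called 0. An unadjusted p under 0.05 was found for 0 of the 9, against 1645 of the 12791 genes. Thus no gene was shown to respond differently, and the lowest adjusted p was 0.433. Of the 9 differences 4 were below 0, and 5 were with the 3 neural-rich libraries left out.

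**Figure D2:**
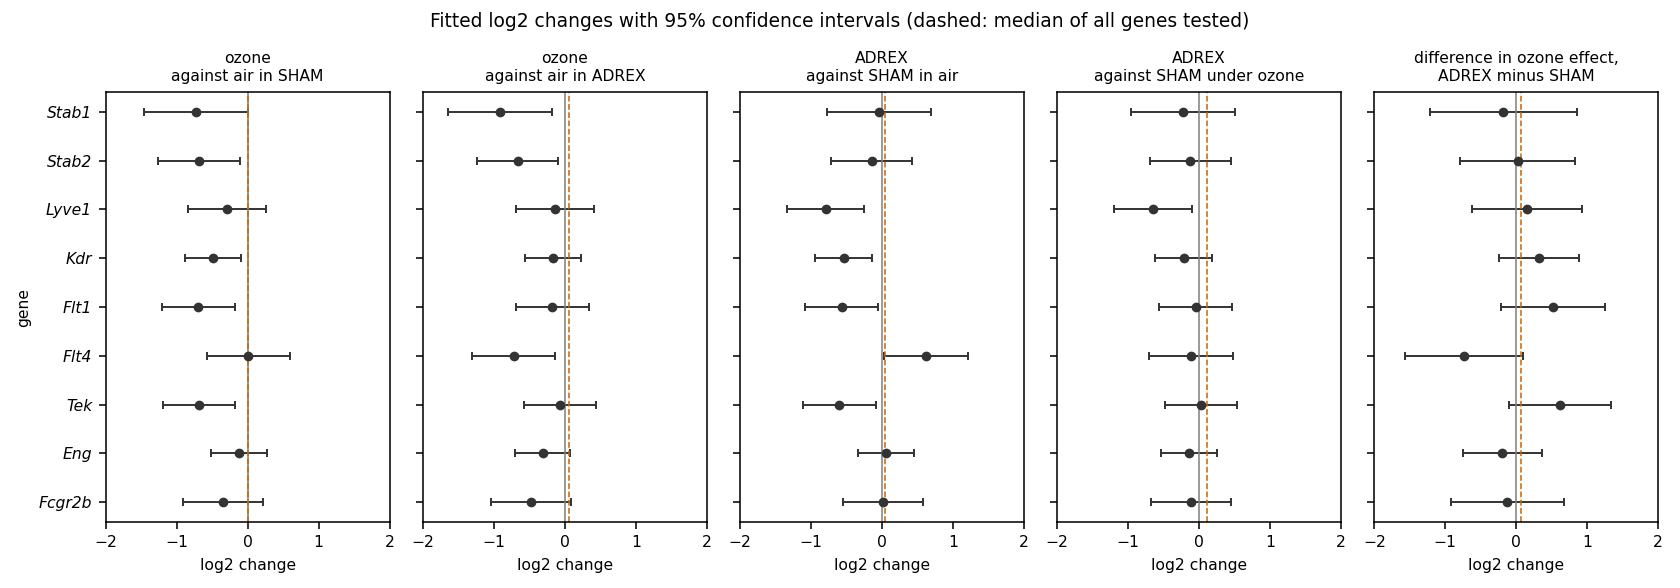
Fitted log2 changes (horizontal axes) of the 9 genes (vertical axis) in 5 comparisons; points are estimates, bars their 95% confidence intervals, and the dashed line is the median of all 12791 genes tested. Intervals below 0 are seen for Stab2, Kdr, Flt1 and Tek under ozone in SHAM, for Stab1, Stab2 and Flt4 under ozone in ADREX, for Lyve1, Kdr, Flt1 and Tek in ADREX against SHAM in air, and for Lyve1 under ozone.

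Adrenalectomy in air came with a lower value of Lyve1, by 42.4% in the fit, and of Kdr, Flt1 and Tek, by 31.2% to 34.0%, while Flt4 was 53.8% higher and the stabilins, Eng and Fcgr2b had log2 changes between -0.14 and 0.06. Lyve1, which on sinusoidal and lymphatic endothelium binds hyaluronan, read 467, 637, 536 and 519.7 in SHAM air and 486, 286, 290.4 and 225 in ADREX air. Apart from library 65, the ADREX air libraries lay below all SHAM air libraries, and the log2 change was -0.80 (SE 0.26). Kdr had the same form, with library 65 at 2249 among the sham values and the other ADREX libraries at 1213 to 1458; its log2 change was -0.54 (SE 0.19). Flt4 read 284, 186, 263 and 189 in SHAM air and 621, 349, 256 and 265 in ADREX air, with library 65 the highest and an overlap between 256 and 284.

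Limma called 0 of the 9 for adrenalectomy in air, against 3.53% of all genes. Unadjusted p was under 0.05 for 5, of which 4 were lower (Lyve1, Kdr, Tek and Flt1) and Flt4 was higher. Over all genes it was for 2579 of 12791, 1191 of them lower. Here edgeR and DESeq2 called 0. Adjusted p was 0.103 for Lyve1, 0.128 for Kdr, 0.182 for Tek, 0.210 for Flt1 and 0.226 for Flt4. Of the 9 changes 6 were below 0, with a median of -0.14, against 45.9% and a median of 0.04 over all genes. None was lower without overlap, against 5.03% of all genes. Without ADREX air library 65, limma called 2 genes, Kdr (log2 change -0.73, adjusted p = 0.0376) and Lyve1 (-1.01, adjusted p = 0.0498), against 1.99% of all genes, and the change of Flt4 went from 0.62 to 0.34.

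Under ozone the difference between ADREX and SHAM was in Lyve1, with the other 8 genes within 0.23 of 0 on the log2 scale. Lyve1 read 447, 257, 471 and 686 in SHAM ozone and 252, 259, 326 and 289 in ADREX ozone. Library 18 was again the sham library that reached down into the adrenalectomized range, and the log2 change was -0.65 (SE 0.26, interval -1.20 to -0.10). In limma 0 of the 9 passed, against 12.5% of all genes, with an adjusted p of 0.106 for Lyve1. Unadjusted p was under 0.05 for Lyve1 alone, 1 of the 9, against 3986 of the 12791 genes. DESeq2 called 1 of the 9, Lyve1 (log2 change -0.81, adjusted p = 0.0321), against 17.2% of the genes it tested in either direction, while edgeR gave an adjusted p of 0.0583 and called 0. Without library 18 limma called Lyve1 too (-0.90, adjusted p = 0.0217), where 13.2% of all genes were called, and with sample weights (-0.69, adjusted p = 0.0498), where 26.7% were. Without SHAM ozone library 20 its change was -0.43 (adjusted p = 0.313), and with the neural marker level as a covariate -0.37 (adjusted p = 0.350). Of the 9 changes 8 were below 0 with a median of -0.12, against 40.8% and a median of 0.11 over all genes. None was lower without overlap, against 9.94% of all genes. Without SHAM ozone library 20 it was 3 of 9 below 0. With the 3 neural-rich libraries left out, 9 of 9 were below 0 and limma called 0 of the 9, against 3.74% of all genes.

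Ordered by group mean, SHAM air was highest for 5 genes (Stab2, Lyve1, Kdr, Flt1 and Tek) and ADREX air for 4 (Stab1, Flt4, Eng and Fcgr2b). ADREX ozone was lowest for 8, and SHAM ozone for Tek. Of 27 pairs of neighbours in these orders, 1 did not overlap, SHAM air and SHAM ozone for Kdr. The share of such pairs over all genes was not computed, so whether this is many or few cannot be said. The comparisons share groups, SHAM air serving as the reference for both ozone and adrenalectomy, so their values are not independent of one another.

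Within groups, 11 of the 36 pairs of genes varied together by Pearson's r. With each gene taken as its deviation from the group mean on the log2 scale, 35 of 36 pairs had a Pearson r above 0 over the 16 libraries, with a median of 0.656. Over all 81798445 pairs of genes tested the median was 0.009, and 3.53% reached the members' median. Permuting libraries within groups 100000 times and adjusting over the 36 pairs, 11 pairs passed by Pearson's r, 11 by Spearman's rho and 9 by both (two-sided). Stab2 and Lyve1 had the highest r, at 0.894 (permutation adjusted p = 0.0265), with a rho of 0.812 (permutation adjusted p = 0.0350). Without the 2 libraries in which the deviation of Stab2 lay farthest from its median, r was 0.767. Kdr and Fcgr2b had r of 0.847 (permutation adjusted p = 0.0054; rho 0.929, adjusted p = 0.00324), and the 2 stabilins 0.717 (permutation adjusted p = 0.0130; rho 0.821, adjusted p = 0.00864). Stab1 and Fcgr2b had the lowest r, at -0.05. Shared size factors and the makeup of each liver sample enter every pair.

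The number of passing pairs rests on few libraries. It was 2 without ADREX air library 65, 2 without SHAM ozone library 18, 6 without SHAM ozone library 20, and 1 with the 3 neural-rich ones left out. The median r was 0.498, 0.535, 0.619 and 0.593 in those sets. With all 16 libraries and the neural marker level as a covariate, 15 pairs passed and the median r was 0.654.

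**Figure D3:**
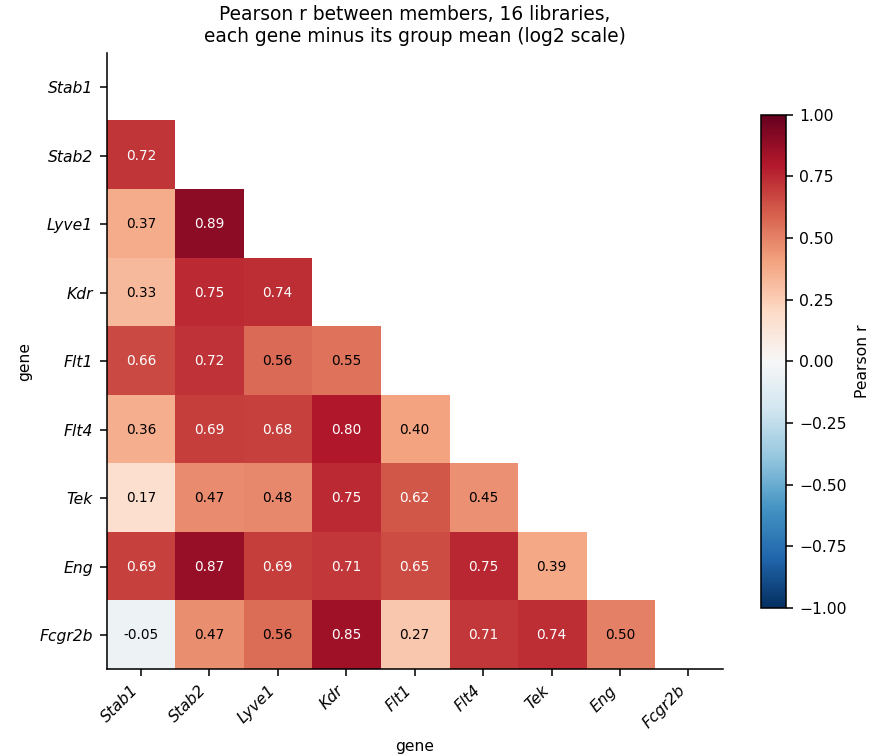
Pearson r (colour and printed value) for each of the 36 pairs of genes over 16 libraries, after each gene's group means were subtracted. The darkest cells are Stab2 with Lyve1 and Stab2 with Eng, and the pale ones are Stab1 with Fcgr2b and with Tek.

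Among genes outside the 9, those most like their mean level over the 16 libraries were, by Pearson r, Lifr (0.838), Pde2a (0.826), Cyp4v3 (0.817), Prelp (0.813), Thbd (0.807), Hspg2 (0.803), Col5a1 (0.801), Pxdn (0.801), Oit3 (0.800) and Loxl2 (0.793). Thbd encodes thrombomodulin, an endothelial anticoagulant receptor, Hspg2 the basement membrane proteoglycan perlecan, Col5a1 a collagen chain, Pde2a a cyclic nucleotide phosphodiesterase, and Lifr a cytokine receptor. With the 2 outermost libraries, ADREX air 65 and SHAM ozone 18, left out, r lay between 0.643 for Oit3 and 0.874 for Hspg2. These are descriptions, picked as the highest of all genes tested.

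Other sinusoidal markers were followed as a list of 20, of which 19 were tested. For ozone, 0 of 19 passed in either surgery, where limma called 1.58% (SHAM) and 0.125% (ADREX) of all genes. The median log2 change was -0.49 in SHAM and -0.33 in ADREX. For ADREX against SHAM the list's median was above 0, at 0.19 in air and 0.16 under ozone. Of the 19, 11 and 14 were above 0, against 6920 and 7573 of the 12791 genes. The medians over all genes were 0.04 and 0.11, and the members' medians were -0.14 and -0.12. In air limma called 1 of 19, against 3.53% of all genes. This was Ehd3, an endocytic trafficking gene, which fell after adrenalectomy from 628 ± 106 to 306 ± 107 (SD, n = 4 each, log2 change -1.09, limma adjusted p = 0.0227). Under ozone 2 of 19 were higher in ADREX, against 6.04% of all genes: the chemokine gene Ccl24 (1.42, adjusted p = 0.0213) and Wnt9b (1.67, adjusted p = 0.0111), a Wnt ligand made by the endothelium of the liver's central region. Wnt9b went from 12.7 ± 6.98 in SHAM ozone to 39.0 ± 11.2 in ADREX ozone (SD, n = 4 each). The SHAM ozone mean lay below the filter of 14.7 normalized counts, which was applied to the mean over all libraries. Both genes had few reads. Over the 16 libraries Wnt9b had 332 (0.367 to 4.32 RPM) and Ccl24 601 (0.780 to 7.34 RPM). Some of the list, Mrc1 for one, is also expressed by Kupffer cells.

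Of 32 tested genes listed as shared endothelium, 0 passed for ozone in either surgery. In SHAM and ADREX limma called 1.58% and 0.125% of all genes for ozone. The list's median log2 changes were -0.19 in SHAM and -0.16 in ADREX. Not every gene of this list marks all endothelium. For ADREX against SHAM the median was above 0, at 0.20 in air and 0.32 under ozone. There limma called 2 of 32 in air, against 3.53% of all genes, and 1 under ozone, against 12.5%. Plvap, which encodes the diaphragm protein of fenestrae and caveolae, rose after adrenalectomy in both exposures, by 1.32 in air (limma adjusted p = 0.00745) and 1.26 under ozone (adjusted p = 0.00452). Its values were 59.4 ± 13.0 and 71.7 ± 16.7 in SHAM air and ozone, and 148 ± 17.2 in ADREX air against 176 ± 64.99 in ADREX ozone (SD, n = 4 each), with no overlap between the surgeries. Higher without overlap in ADREX were 7 of the 32 in air and 5 under ozone. Over all genes the shares were 4.24% and 10.6%. Klf4, a flow-regulated transcription factor that other cells make too, rose in air (1.21, adjusted p = 0.0232). Prox1 is used as a lymphatic marker but is abundant in hepatocytes. Its normalized counts were 2817 ± 532 and 3549.6 ± 396 in SHAM air and ozone, and 3244 ± 419 in ADREX air against 1558 ± 325 in ADREX ozone (SD, n = 4 each). Prox1 fell under ozone in ADREX (log2 change -1.07, limma adjusted p = 0.0352), differed from its ozone change in SHAM (-1.42, adjusted p = 0.0387), and was lower in ADREX than SHAM under ozone (-1.20, adjusted p = 0.000777). In these comparisons limma called 0.125%, 0.109% and 12.5% of all genes, in that order. The lymphatic genes Pdpn, Ccl21 and Mmrn1 reached 1.23, 3.52 and 1.31 RPM at most.

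The ligands and partners of these receptors were read from further lists. Vegfa, the ligand of Kdr and Flt1, stood at 2419 ± 719.6 and 2105 ± 118 in SHAM air and ozone, and at 3169.9 ± 515 in ADREX air against 2712 ± 603 in ADREX ozone (SD, n = 4 each). None of the 5 VEGF ligands and co-receptors tested passed in any of the 5 comparisons by limma. Unadjusted p was under 0.05 for 2 for ozone in SHAM and 2 for ADREX against SHAM under ozone. Over all 12791 genes it was for 2358 and 3986 in these comparisons. Ptprb, the endothelial phosphatase that acts on TIE2, was lower in ADREX than SHAM under ozone (-1.06, limma adjusted p = 0.0410). It was alone of the 3 tested genes of angiopoietin signalling, where 12.5% of all genes were called. Of 15 genes of BMP and TGF-beta signalling around endoglin, limma called 1 higher after adrenalectomy in air, where 3.53% of all genes were called. Under ozone it called 3 higher and 1 lower, where 12.5% of all genes were called. Tgfb1 rose after adrenalectomy in air (0.72, adjusted p = 0.0486) and under ozone (0.84, adjusted p = 0.0101). Under ozone the target genes Id1 (1.67, adjusted p = 0.0458) and Id3 (1.21, adjusted p = 0.0199) were higher, and the receptor Bmpr2 was lower (-0.87, adjusted p = 0.00483).

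Fcgr2b and its activating relative Fcgr1a are set side by side. Fcgr2b had log2 changes of 0.01 (interval -0.55 to 0.58) in air and -0.11 (interval -0.67 to 0.45) under ozone for ADREX against SHAM. Fcgr1a rose in both, by 1.28 (limma adjusted p = 0.0375) and 1.12 (adjusted p = 0.0331). In these comparisons limma called 3.53% and 12.5% of all genes. The difference between the 2 genes was not tested. Fc receptor genes are close relatives, and how the authors assigned reads shared between them is not given in the sources used here, so their values are uncertain to that extent.

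Kupffer cells, the liver's macrophages, can also express Stab1, Lyve1, Eng and Fcgr2b. Their 13 markers in the table summed to 738 to 1058 RPM (SHAM air), 812 to 1133 RPM (SHAM ozone), 924 to 1827 RPM (ADREX air) and 949.6 to 1891 RPM (ADREX ozone). Of 12 tested, limma called 3 higher after adrenalectomy under ozone (C1qa, C1qb and Clec4f), against 6.04% of all genes, and 2 had changes below 0. Stellate cell markers summed to 361 to 429, 282 to 389, 324 to 628 and 413 to 731 RPM in the same order of groups. ADREX air library 65 held 1827 RPM of Kupffer markers and 131095 RPM of hepatocyte markers. The part of these in the endothelial values was not tested.

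**Figure D4:**
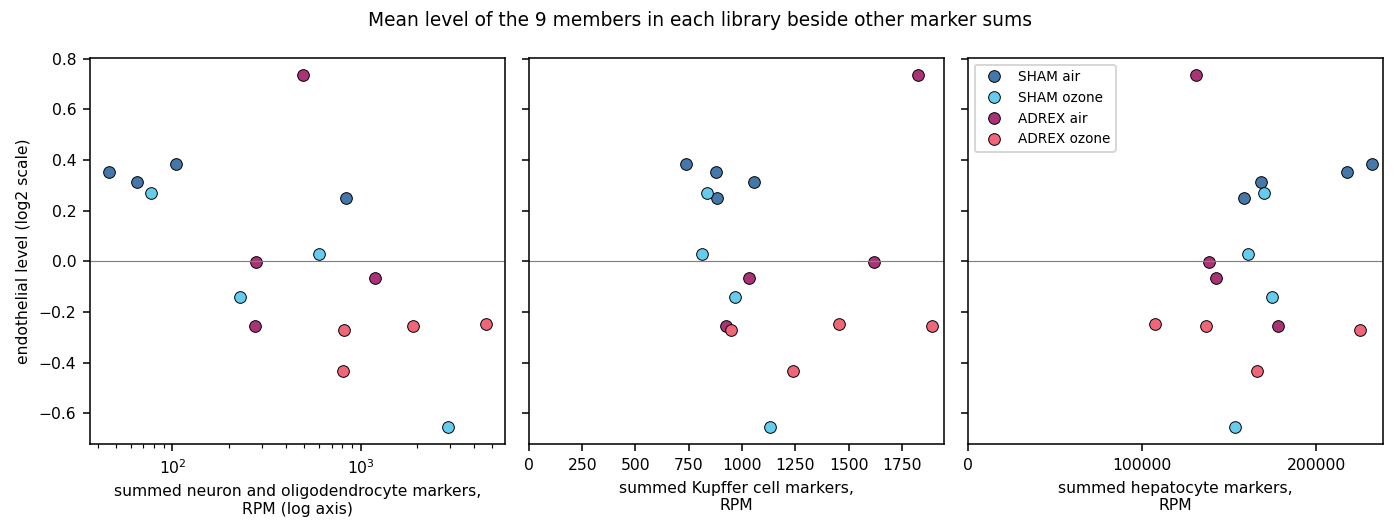
Mean level of the 9 genes (vertical axis, log2 scale, each gene centred on its own mean) in 16 libraries against summed RPM (horizontal axes) of neural (log axis), Kupffer cell and hepatocyte markers; colours are the groups. SHAM ozone library 18, at the bottom, has 2898 RPM of neural markers, and ADREX air library 65, at the top, has 1827 RPM of Kupffer cell markers. ADREX ozone library 82 has the most neural markers (4662 RPM) at a level of -0.25, the highest of its group. ADREX ozone library 81 has the most Kupffer cell markers (1891 RPM) at a level of -0.26.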

How the data were processed

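From rat liver, 16 RNA-seq libraries, 4 per group, were analysed. Per the labels' protocols, mRNA was selected by its poly-A tail, libraries were made with the Wafergen PrepX kit and sequenced on a NextSeq 500. Partek, DESeq2 and genome build rn6 are named per the submitters' processing notes. Tool versions, the aligner, the annotation and strand use were not given in the sources used here.

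Signal values in the deposited table are normalized counts: in each library the authors scaled every gene's read count by the same size factor. Dividing by each column's step gave whole reads for 100% of values within 0.01. Genes with a mean of at least 14.7 normalized counts (1 in 1000000 of the median column total) were kept, 12791 of 22587 rows. Log2(value + 1) was fitted with limma 3.58.1 (trended variance, 4 group means, all 16 libraries, R 4.3.3), two-sided, with Benjamini-Hochberg adjustment over all genes and a threshold of 0.05. Fold changes on this scale understate changes of low genes. Alternatives were a pseudocount of 10, no or a stricter filter, TMM and median-of-ratios scaling, sample weights, a robust fit, only the compared groups, edgeR 4.0.16 (quasi-likelihood) and DESeq2 1.42.0 on recovered reads, a neural marker score as covariate, 3 neural-rich libraries left out, and each library left out. Models and the pair test were tested on simulated data. A count of 0 allows up to 3 reads, 0.213 to 0.358 RPM, by counting error only.

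The named genes are all members, genes of other lists that passed the test or define a list, and the 10 genes most like the members' mean level; ratios in the closing section were chosen after values were seen. Members and lists were chosen with earlier results of these data known.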

Additional observations from a re-analysis of the deposited data

Results flagged for a closer look

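Among the 36 combinations of 9 genes and 4 groups examined for 1 library far from its group, 1 stood out. Tek in ADREX air library 65 read 552 normalized counts, while the other libraries of the group read 279.6, 286 and 322. The gap to the nearest was 0.846 of the group's range, above Dixon's 95% critical value for 4 samples. Chance marks about 1 in 20 groups.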

How the results depend on the processing

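Over 28 alternatives, 16 of them leaving out 1 library, 0 members were called for ozone in SHAM, and over 27 for the difference in ozone effect, which the fit of only the compared groups cannot give. Members called for ozone in ADREX were 1 with sample weights, where 2.58% of all genes were called. For ADREX against SHAM in air, leaving out 1 library gave 0 to 2, the 2 being without ADREX air library 65, where 1.99% of all genes were called. For ADREX against SHAM under ozone, the count was 1 with sample weights (Lyve1, -0.69, limma adjusted p = 0.0498), where 26.7% of all genes were called. It was 1 with DESeq2, where 17.2% of the genes it tested were called. With 1 library left out it was 0 to 1, the 1 being without SHAM ozone library 18, where 13.2% were called. Pairs that varied together numbered 1 without the 3 libraries richest in neural markers and 2 to 14 with 1 library left out, against 11. Fewer libraries enter each of these. With all 16 libraries and the neural marker score as a covariate, 15 pairs passed. The cause of the differences was not tested. The fitted change kept its sign under every alternative for 25 of the 45 combinations of gene and comparison, and the largest change that flipped was 0.19 in size. The members' median lay between -0.59 and -0.34 for ozone in SHAM, -0.47 and -0.20 for ozone in ADREX, -0.23 and 0.27 for the difference, -0.39 and 0.04 for ADREX against SHAM in air, and -0.35 and 0.00 under ozone. No paired analysis was possible because the groups share no replicate number. With 4 libraries a group, the 95% intervals of the members reached from 0.39 to 1.04 to each side of the fitted log2 change.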

Other observations

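Ratios between members within a library do not depend on its size factor. All 36 ratios were computed on the log2 scale in 4 comparisons of 4 against 4 libraries, 144 in all, and were chosen after the single genes' values were seen. In 23 of them the groups did not overlap, 14 of which were ADREX against SHAM in air. That is 38.9% of the 36 ratios in that comparison, where 9.60% of the ratios of all pairs of genes tested did not overlap. In the other comparisons the shares were 11.1% against 10.37% for ozone in SHAM, 8.33% against 11.15% for ozone in ADREX and 5.56% against 20.04% for ADREX against SHAM under ozone. The ratios share genes and are not independent of one another. Each of the 23 reached the smallest p that an exact two-sided permutation test of 4 against 4 can give, 0.0286, and the adjusted p over all 144 was 0.179, so none passed.

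Flt4, the VEGF-C receptor, and Flt1, the VEGF-A and placental growth factor receptor, stood in different proportion. The ratio of Flt4 to Flt1 was 0.799, 0.426, 0.968 and 0.374 in SHAM air and 1.55, 1.38, 1.19 and 1.33 in ADREX air, with no overlap. In SHAM ozone it was 1.22, 0.726, 0.987 and 0.995, and in ADREX ozone 1.12, 0.762, 1.26 and 0.681. Library 65, the highest of ADREX air for both genes, was also the highest for their ratio, and the other ADREX air libraries lay above all SHAM air libraries as well. Of the ratios of all pairs of genes tested, 9.60% did not overlap in that comparison. The ratio did not pass (exact permutation test, adjusted p = 0.179).

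Lyve1 was low relative to Stab2 in the adrenalectomized groups of both exposures, although the ratio did not pass. The log2 ratio of Stab2 to Lyve1 was 0.27 ± 0.10 in SHAM air, 0.92 ± 0.26 in ADREX air, -0.13 ± 0.08 in SHAM ozone and 0.39 ± 0.24 in ADREX ozone (SD, n = 4 each), with no overlap between the surgeries in either exposure. In sham-operated rats the same ratio was also lower under ozone than in air without overlap. Among the ratios of all pairs of genes tested, 9.60% separated the surgeries in air and 20.04% did so in ozone. For ozone in sham-operated rats the share was 10.37%. The ratio passed in none of these comparisons (exact permutation test, adjusted p = 0.179 in each).

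Neuron and oligodendrocyte markers had an r below 0 with the members' mean level for all 23 tested genes over the 16 libraries, with a median of -0.59, and -0.33 after group means were subtracted. The libraries share their scaling, so these are descriptions. Over all 12791 genes tested the median was -0.06, with 5602 above 0. Brain endothelium markers had a median of -0.51, Kupffer cell markers -0.03, other sinusoidal markers 0.44 and markers listed as shared endothelium 0.31.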
